A study of Saccharomyces cerevisiae with 10 samples.

Results

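The interval from 0.5 h to 1 h after the shift of a yeast culture from dextrose to ethanol is described here, over all named genes of the array. Its members are the 2 arrays labelled 1 h and the 2 arrays labelled 0.5 h, 4 of the 10 arrays of a time course that ran to 12 h with 2 arrays per time, and 5449 genes, each read from its brightest probe set. The cells were a pool of barcoded diploid Saccharomyces cerevisiae strains in the S288c background, built for a protein-fragment complementation assay in which each strain carries a pair of proteins fused to fragments of a methotrexate-resistant reductase. The study used the time course to set mRNA levels beside the abundance of protein complexes after the change of carbon source. Total RNA was primed with oligo(dT) and hybridised to Affymetrix arrays.

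The 1 h and 0.5 h samples differ in nothing but the time after transfer as far as the labels go. Both came from the same pool, grown in minimal medium with dextrose and then moved to minimal medium with yeast nitrogen base, ammonium sulfate, ethanol as the carbon source and methotrexate, and the 0 h samples carry the same description. The labels and the study's design text list the 1 h samples, whereas the harvest times given in the methods leave 1 h out. Whether the dextrose pre-culture held methotrexate differs between the study's results and its methods. Each array read the mean of many strains, so a change in the share of strains, in the number of cells of a kind or in the RNA per cell cannot be told apart. Each time has a biological replicate 1 and 2 by its labels, but no source says whether these were separate cultures, and the intervals and adjusted p given here measure the spread between these arrays. The 25 measured haploid-specific and mating genes, which a diploid pool should keep down, had a summed intensity of 2165 and 1924 at 1 h, against 2113 and 1990 at 0.5 h. Their median was 86.3 and 77.0 at 1 h and 81.1 and 81.8 at 0.5 h, where all genes had 325 and 326 at either time. Members were unlike. The pheromone gene MF(ALPHA)1, among the dimmest, read 6.13 and 6.54 at 1 h, against 7.12 and 7.81 at 0.5 h. SAG1 read 193 and 191 at 1 h and 202 and 205 at 0.5 h, and STE6 156 and 144 at 1 h and 165 and 130 at 0.5 h.

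Budding yeast prefers glucose, which it ferments to ethanol while genes for respiration and for the use of other carbon sources are repressed. When ethanol is the sole carbon source, the cell must oxidise it to acetyl-CoA, run the glyoxylate cycle and gluconeogenesis, and respire. Ribosome production, which takes a large share of transcription in growing cells, is cut back within minutes of a loss of glucose and returns as cells adapt.

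No gene passed the threshold between these 2 times. With limma over all 10 arrays and Benjamini-Hochberg adjustment, 0 of 5449 genes (0%) had an adjusted p under 0.05 at 1 h against 0.5 h, and the smallest adjusted p was 1.00. At an unadjusted p under 0.05 there were 90 genes (1.65%), 61 higher (1.12%) and 29 lower (0.532%) at 1 h. The median change over all genes was −0.01 on the log2 scale. The 95% interval of the change lay within a 2-fold change in either direction for 5050 genes (92.7%) and within a 1.5-fold change for 2869, with a median interval of ± 0.45. These intervals are not adjusted for the number of genes and are no limit of detection. Larger estimates, such as 0.61 for RPS19A, also went without a call with 2 arrays a time. Estimated changes of 2-fold or more were seen for 3 genes, TIP1, CDA2 and ALP1.

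The same fit made many calls on either side of this interval. Against 0 h, 3426 genes (62.9%) differed at 0.5 h, with 1642 higher (30.1%) and 1784 lower (32.7%), and 3415 (62.7%) differed at 1 h, with 1596 higher (29.3%) and 1819 lower (33.4%). Between 1 h and 4 h, 1485 genes (27.3%) changed, of which 789 (14.5%) were higher and 696 (12.8%) lower at 4 h. The difference between the 2 first steps, from 0.5 h to 1 h minus from 0 h to 0.5 h, passed the threshold for 2143 genes (1106 positive and 1037 negative) in limma. The difference between the step from 1 h to 4 h and that from 0.5 h to 1 h passed for 0 genes, with 915 at an unadjusted p under 0.05 and a smallest adjusted p of 0.0540. Both differences give the arrays of the shared time more weight, so their standard error is larger than that of a single step. The steps also differ in length, and 0 calls do not show them to be alike.

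The arrays of 1 h and 0.5 h were about as close to each other as the 2 arrays of either time. Log2 intensity correlated across genes at r = 0.993 between the 1 h and 0.5 h arrays numbered 1, with 8 genes 2-fold or more apart, and at 0.991 between those numbered 2, with 39 genes. Across numbers the values were 0.980 (1 h replicate 1 and 0.5 h replicate 2, 116 genes) and 0.990 (1 h replicate 2 and 0.5 h replicate 1, 38 genes). The 2 arrays of 1 h correlated at 0.985 with 53 genes 2-fold apart, and the 2 arrays of 0.5 h at 0.985 with 86. The changes seen in replicate 1 and replicate 2 correlated across genes at only r = 0.03: 1253 genes were higher at 1 h in both, 1588 lower in both and 2608 of opposite sign (genes are not independent replicates). Because of this, changes are given below for each replicate number, and a gene is called not overlapping where both 1 h arrays lay on the same side of both 0.5 h arrays, which held for 590 genes above (10.8%) and 658 below (12.1%).

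**Figure D1:**
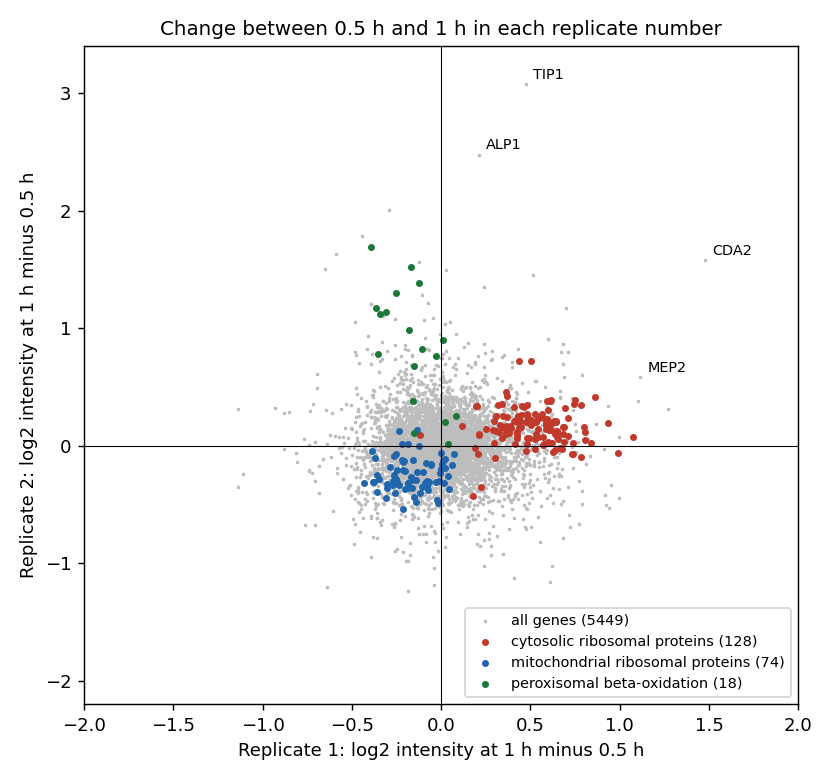
Each point is a gene, with its change from 0.5 h to 1 h (log2 intensity at 1 h minus 0.5 h) in replicate 1 on the horizontal axis and in replicate 2 on the vertical axis. Cytosolic ribosomal protein genes lie to the right (medians 0.53 and 0.16), mitochondrial ribosomal protein genes to the lower left (−0.16 and −0.29), and beta-oxidation genes above the rest in replicate 2 only (−0.15 and 0.86).

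Genes of the cytosolic ribosome lay higher at 1 h, without a call for any of them. Of 138 listed genes 128 were measured, and 107 of these did not overlap, all 107 with the 1 h arrays above (10.8% of all genes). Their median log2 change was 0.34, beside −0.01 for all genes, and the change was positive for 125 members and negative for 3. Of the 61 genes above at an unadjusted p under 0.05, 40 (65.6%) were in this list, which held 128 of the 5449 genes tested. Of the 29 below 0 were, but a list of that size leaves this count too small to read. The median intensity of the list was 1926 and 1543 on the 1 h arrays, against 1280 and 1401 on the 0.5 h arrays. Each 1 h array thus lay above both 0.5 h arrays, but the step was 0.53 in replicate 1 and 0.16 in replicate 2, with 127 and 113 members higher. The small subunit genes (median 0.34, 47 of 53 above without overlap) and the large subunit and stalk genes (0.35, 60 of 75) gave like values.

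RPS19A (YOL121C), a protein of the small subunit, had an intensity of 558 and 672 at 1 h (replicates 1 and 2, as in all pairs below), against 394 and 408 at 0.5 h. Its log2 change was 0.61 (95% interval 0.25 to 0.98), and the gap between the times was wider than that within either. RPL23B (YER117W), of the large subunit, read 2417 and 2081 at 1 h and 1587 and 1598 at 0.5 h, a change of 0.49 (0.16 to 0.83). RPP2A (YOL039W), a protein of the acidic stalk that contacts translation factors, read 2132 and 1604 at 1 h and 1269 and 1228 at 0.5 h, a change of 0.57 (0.16 to 0.98). In these 3 genes the 0.5 h arrays nearly coincided and the 1 h arrays stood apart from them.

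Other members differed in how far both replicate numbers took part. RPS24B (YIL069C) read 1921 and 1623 at 1 h and 1005 and 1424 at 0.5 h, so that its change was 0.93 in replicate 1 and 0.19 in replicate 2. RPL27A (YHR010W) and its paralog RPL27B (YDR471W) gave like values, with 0.62 and 0.39 for the first in replicates 1 and 2, and 0.59 and 0.38 for the second. RPS14B (YJL191W) read 916 and 680 at 1 h and 533 and 536 at 0.5 h, and RPL20A (YMR242C) 1332 and 1226 at 1 h and 925 and 1018 at 0.5 h. The largest estimate in the list was that of RPS9A (YPL081W), at 0.64, but its arrays overlapped, with 281 and 434 at 1 h and 154 and 325 at 0.5 h. RPS9A was among the 5 members not called lower at 0.5 h against 0 h (log2 change −0.35, adjusted p = 0.44, limma) and rose by 1.81 between 1 h and 4 h.

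Members at the other end of the list were RPP2B, a P2 protein of the acidic stalk, with 2063 and 2091 at 1 h and 1824 and 2813 at 0.5 h, and ASC1, the G-beta-like scaffold of the small subunit head, with 1063 and 808 at 1 h and 911 and 1033 at 0.5 h. With RPL9A (885 and 864 at 1 h, 961 and 813 at 0.5 h) these were the 3 members with a negative estimate, and the arrays of all 3 overlapped. They are named because of their values. Among the kept probe sets of the list, 25 are of kinds that the array's maker marks as shared between genes, and near-identical paralogs may share signal; without shared probe sets the median was 0.36.

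This stood within a larger swing of the same genes. At 0.5 h 123 of the 128 (32.7% of all genes) were lower than at 0 h, with a median of −1.30, and at 1 h 120 (33.4% of all genes) were lower, with a median of −0.95. Between 1 h and 4 h 114 members rose (14.5% of all genes) with a median of 0.75, and 0 fell. The 3 comparisons share arrays, and the values are given side by side only. RPS19A, for example, averaged 1553 ± 166 before transfer, then 401 ± 9.38 (0.5 h), 615 ± 80.5 (1 h), 1317 ± 82.1 (4 h) and 1396 ± 78.7 (12 h; SD, n = 2).

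**Figure D2:**
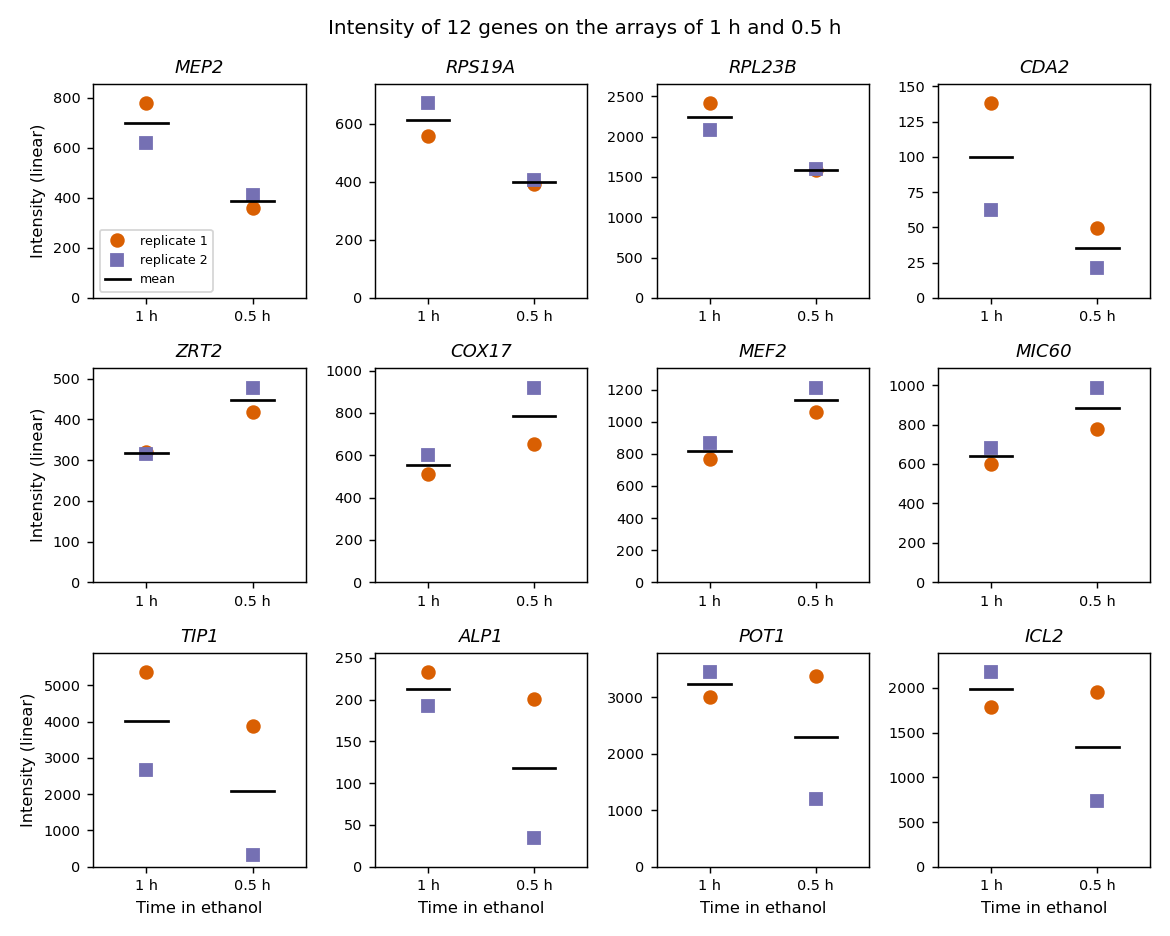
Intensity (linear scale from 0) of 12 genes on the 1 h arrays, left in each panel, and the 0.5 h arrays, right, with the mean as a bar. In the upper row the 1 h arrays lie above both 0.5 h arrays, and in the middle row below both. In the lower row the times overlap, as the 0.5 h array of replicate 1 lies above at least 1 of the 1 h arrays. There the 0.5 h array of replicate 2 lies far below that of replicate 1, as for TIP1 at 316.05 against 3867.

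Genes for making ribosomes had positive estimates that rested on replicate 1. The small subunit processome, the assembly of factors that processes the precursor of the small ribosomal RNA, was measured with 55 genes. Of these 54 had a positive estimate and 12 did not overlap, all above (21.8%, against 10.8% of all genes). Their median was 0.20, with 0.42 in replicate 1 and −0.02 in replicate 2. The list of large subunit assembly factors gave the same picture, with 55 of 63 positive and 12 (19.0%) above without overlap. Its medians were 0.17 for both arrays of each time, 0.41 in replicate 1 and −0.04 in replicate 2. Without the 1 h array of replicate 1 the 2 medians were −0.03 and −0.07. Median intensities of the processome list were 166 and 120 at 1 h, against 120 and 124 at 0.5 h, and it was the 1 h array of replicate 1 that stood above the other 3.

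ROK1 (YGL171W), an RNA helicase needed for the small ribosomal RNA, was the member named by its test, with 128 and 118 at 1 h and 80.6 and 89.1 at 0.5 h, a change of 0.54 (0.13 to 0.94). ROK1 met the brightness minimum of 100 for named genes only through its 1 h mean of 123, with 84.8 at 0.5 h. The difference between the times was positive in both replicate numbers, at 0.66 and 0.41. ECM16 (YMR128W), another helicase of the processome, read 308 and 185 at 1 h and 213 and 126 at 0.5 h, higher in both numbers (0.53 and 0.55) but with overlapping arrays. MAK16 (YAL025C), a large subunit assembly factor, was dim, with 26.5 and 20.7 at 1 h and 14.6 and 18.2 at 0.5 h. All 3 had fallen at 0.5 h against 0 h, with log2 changes of −2.75, −1.91 and −3.32, and ROK1 and MAK16 rose by 1.60 and 1.87 from 1 h to 4 h.

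Other lists of the translation and growth machinery had smaller medians. Of 37 subunits of RNA polymerases I and III, which transcribe ribosomal RNA and tRNA, 8 lay above and 4 below without overlap, with a median of 0.12, and RPC19 (YNL113W), a subunit of both enzymes, read 421 and 237 at 1 h and 273 and 197 at 0.5 h. Of 20 cytosolic tRNA synthetases 4 lay above and 0 below (median 0.08), and SES1 (YDR023W), the seryl-tRNA synthetase, read 503 and 538 at 1 h and 372 and 521 at 0.5 h. Of 37 translation factors 2 lay above and 3 below (median 0.02), and the largest estimate was that of ANB1 (YJR047C), the anaerobic form of eIF5A, which was dim, with 18.7 and 23.9 at 1 h and 16.0 and 20.9 at 0.5 h. The 60 other amino acid synthesis genes had 8 above and 3 below, with a median of 0.06. Among them ARO9 (YHR137W), an aromatic aminotransferase, read 995 and 1255 at 1 h and 978 and 445 at 0.5 h, where the 0.5 h array of replicate 2 stood below the other 3. Over all genes 10.8% lay above and 12.1% below.

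For sulfur amino acid genes the difference between the times had opposite signs in the 2 replicate numbers, which no source ties across times. Over 39 genes of methionine, cysteine and sulfate metabolism the median was 0.30 in replicate 1 and −0.39 in replicate 2, with 32 members higher in replicate 1 and 33 lower in replicate 2, and a median of −0.06 over both. SAM1 (YLR180W), an S-adenosylmethionine synthetase, read 274 and 329 at 1 h and 232 and 670 at 0.5 h. Its 0.5 h array of replicate 2 stood above the other 3 arrays. The list gives no value for this interval that both numbers share.

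Among nitrogen genes an ammonium permease and the arginase lay above at 1 h on both arrays. MEP2 (YNL142W), the high-affinity ammonium permease that also acts as a sensor, read 778 and 617 at 1 h, against 359 and 413 at 0.5 h, a log2 change of 0.85 (0.24 to 1.45). All of its arrays at 1 h lay above those at 0.5 h, in a gene that had fallen by 2.74 from 0 h to 0.5 h and that rose by 2.23 from 1 h to 4 h, when it read 2391 and 4439. Over the 29 amino acid and ammonium permeases measured, however, 5 lay above and 2 below without overlap, and the median was 0.03. These are 17.2% and 6.9%, against 10.8% and 12.1% of all genes. CAR1 (YPL111W), the arginase, read 3809 and 3490 at 1 h and 3225 and 2360 at 0.5 h, without overlap (0.40, −0.03 to 0.83).

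THI73 (YLR004C), a putative permease of the plasma membrane, read 211 and 163 at 1 h and 131 and 101 at 0.5 h, which is 0.68 in replicate 1 and 0.69 in replicate 2. CDA2 (YLR308W), a chitin deacetylase known from the spore wall, read 138 and 62.4 at 1 h and 49.6 and 20.9 at 0.5 h, a change of 1.48 in replicate 1 and 1.58 in replicate 2. It met the brightness minimum of 100 for named genes only through its 1 h mean of 100.3, so its size is given as a description. CDA2 was called at 1 h against 0 h (1.89, adjusted p = 0.01, limma) but not at 0.5 h (0.36, adjusted p = 0.58), and by 4 h it had risen by a further 3.0, to 839 and 662. REC8 (YPR007C), the meiotic cohesin subunit, was dim and read 38.6 and 42.1 at 1 h and 25.5 and 22.5 at 0.5 h (0.75, 0.30 to 1.20). Its list of 24 meiosis entry genes had 3 members above and 3 below without overlap. Each is 12.5%, against 10.8% and 12.1% of all genes.

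Genes of the mitochondrial ribosome lay lower at 1 h, without a call for any of them. Of 74 mitochondrial ribosomal protein genes, all measured, 72 had a negative estimate and 27 lay below without overlap (12.1% of all genes), with 0 above. The median change was −0.22, with −0.16 in replicate 1 and −0.29 in replicate 2, and 65 and 70 members were lower. The 95% interval of all 74 lay within a 2-fold change. The median intensity of the list was 411 and 462 at 1 h, against 466 and 566 at 0.5 h. The 1 h array of replicate 2 thus lay close to the 0.5 h array of replicate 1. On the log2 scale relative to the 0 h mean, the list median was 0.71 and 0.92 at 1 h. At 0.5 h it was 0.85 and 1.12, so that the arrays of the 2 times overlapped on this measure.

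Of the named members of the mitochondrial translation system, MEF2 and MSF1 came from a rule that required arrays without overlap. Their order therefore adds nothing to the counts of the list. MEF2 (YJL102W), a mitochondrial elongation factor, read 768 and 870 at 1 h, against 1060 and 1213 at 0.5 h, a change of −0.47 (−0.84 to −0.10) that was nearly equal in the replicates (−0.47 and −0.48). MSF1 (YPR047W), the mitochondrial phenylalanyl-tRNA synthetase, read 75.5 and 94.5 at 1 h and 106 and 146 at 0.5 h (−0.56, −1.03 to −0.08). MSF1 met the brightness minimum for named genes only through its 0.5 h mean of 126, with 85.0 at 1 h. TUF1 (YOR187W), the mitochondrial elongation factor Tu, read 1250 and 1639 at 1 h and 1680 and 2308 at 0.5 h (−0.46, −0.91 to −0.01), and was picked for its values. MRPL7 (YDR237W), with 260 and 303 at 1 h and 334 and 399 at 0.5 h, had the largest estimate among the ribosomal proteins, −0.38. The arrays of TUF1 and MRPL7, picked by value and by size, did not overlap either.

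Beside 12.1% of all genes, 15 of 40 genes of respiratory complex assembly (37.5%) lay below without overlap and 2 above. Their median was −0.15, with −0.11 in replicate 1 and −0.21 in replicate 2. Among the subunits of the respiratory chain and ATP synthase 14 of 42 (33.3%) lay below and 1 above. Their median was −0.11, with −0.07 in replicate 1 and −0.17 in replicate 2. On the log2 scale relative to the 0 h mean, the subunit list stood at 1.43 and 1.43 at 1 h. At 0.5 h it stood at 1.43 and 1.60, so that only the 0.5 h array of replicate 2 stood apart. CYC7 (YEL039C), the minor cytochrome c, had the largest estimate of the subunits, with 116 and 205 at 1 h and 126 and 344 at 0.5 h and overlapping arrays. COX17 (YLL009C), the copper chaperone of cytochrome c oxidase, read 510 and 600 at 1 h and 655 and 920 at 0.5 h (−0.49, −0.93 to −0.04). MSS51 (YLR203C), which activates translation of the mitochondrial COX1 mRNA, read 623 and 744 at 1 h and 833 and 976 at 0.5 h. COA3 (YJL062W-A), an assembly factor of the same enzyme, read 545 and 483 at 1 h and 660 and 765 at 0.5 h. Each of these 3 genes was named by its test, and none had a call.

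MIC60 (YKR016W), a core protein of the crista junction complex, read 601 and 680 at 1 h and 777 and 987 at 0.5 h (−0.45, −0.85 to −0.05). RMD9 (YGL107C), which stabilises mitochondrial mRNAs, read 266 and 265 at 1 h and 326 and 350 at 0.5 h (−0.35, −0.68 to −0.02). ATP10 (YLR393W), an ATP synthase assembly factor, was too dim to weigh, at 12.9 and 12.5 at 1 h and 17.6 and 18.2 at 0.5 h. Of 34 import genes 6 lay below (17.6%, near the 12.1% of all genes) and 2 above (median −0.15), and MAS2 (YHR024C), a subunit of the protease that removes import signals, read 291 and 410 at 1 h and 378 and 517 at 0.5 h. The enzymes of the TCA cycle stood closer to 0, with 4 of 21 below (19.0%), 0 above and a median of −0.06. SDH1 (YKL148C), the flavoprotein of succinate dehydrogenase, had the largest estimate there, −0.25, with overlapping arrays.

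Of the 74 mitochondrial ribosomal protein genes, 69 (30.1% of all genes) had risen at 0.5 h against 0 h, with a median of 1.00, and 61 (29.3% of all genes) were higher at 1 h, with a median of 0.79. Between 1 h and 4 h 2 of them rose (14.5% of all genes) and 1 fell (12.8% of all genes), with a median of 0.08. MEF2 had risen 3.65 at 0.5 h and was 3.17 above 0 h at 1 h, and COX17 2.16 and 1.67. Of the 34 import genes 20 were called higher at 0.5 h than at 0 h (30.1% of all genes). At 1 h 15 were higher (29.3% of all genes) and 6 lower (33.4% of all genes) than at 0 h. MAS2 was among those lower at 1 h (−0.88, adjusted p = 0.007, limma), and RMD9 was not called at 0.5 h (0.08, adjusted p = 0.66). The median over the mitochondrial ribosomal proteins kept its sign when any of the 4 arrays was left out, and ran from −0.37 without the 0.5 h array of replicate 1 to −0.09 without that of replicate 2.

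**Figure D3:**
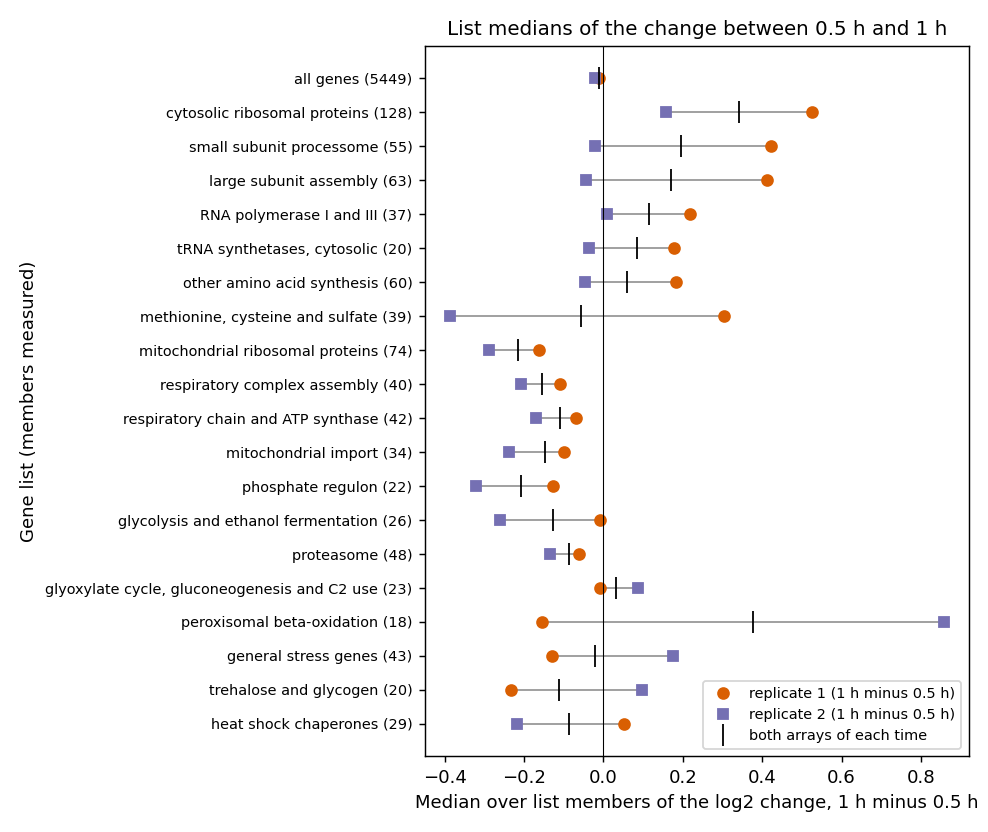
Median log2 change from 0.5 h to 1 h for all genes and 19 gene lists, with circles for replicate 1, squares for replicate 2 and a tick for both arrays of each time. Circle and square lie on the same side of 0 for cytosolic ribosomal proteins (0.53 and 0.16) and mitochondrial ribosomal proteins (−0.16 and −0.29), and on opposite sides for methionine genes (0.30 and −0.39) and beta-oxidation (−0.15 and 0.86).

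ZRT2 (YLR130C), the low-affinity zinc transporter, named by its test and without a call, read 320 and 315 at 1 h and 419 and 478 at 0.5 h, a change of −0.50 (−0.83 to −0.17). ZRT1 (YGL255W), the high-affinity zinc transporter, chosen after ZRT2 was seen, read 564 and 612 at 1 h and 647 and 1211 at 0.5 h, again with both 1 h arrays below. Both had fallen at 0.5 h, by 1.88 and 2.17, and ZRT2 fell by a further 0.47 from 1 h to 4 h. Zinc uptake was not among the lists, so these 2 genes stand for themselves. In the phosphate regulon 9 of 22 genes (40.9%, against 12.1% of all genes) lay below and 1 above, with a median of −0.21. PHO84 (YML123C), the high-affinity phosphate transporter, read 3071 and 1826 at 1 h and 3590 and 3134 at 0.5 h, with an interval that includes 0 (−0.50, −1.21 to 0.20).

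Of 36 fatty acid and phospholipid genes 12 (33.3%, against 12.1% of all genes) lay below without overlap and 1 above, with a median of −0.09. ERG4 (YGL012W), which carries out the last step to ergosterol, read 338 and 464 at 1 h and 474 and 830 at 0.5 h (−0.66, −1.31 to −0.02), in a sterol list with 3 of 29 below (10.3%, under the share of all genes) and 0 above. ERG4 had been called lower at 0.5 h than at 0 h, and both 1 h arrays lay lower still.

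Lists of glucose use had medians between −0.13 and −0.04. Of 26 genes of glycolysis and ethanol fermentation 7 lay below (26.9%, against 12.1% of all genes) and 0 above. Their median was −0.13, with −0.01 in replicate 1, where 13 of the 26 were higher, and −0.26 in replicate 2. HXK1 (YFR053C), a hexokinase, had the largest estimate there and read 714 and 1357 at 1 h and 937 and 2083 at 0.5 h, with overlapping arrays. Of 19 hexose transporters and glucose sensors 3 lay below and 1 above (15.8% and 5.3%, against 12.1% and 10.8% of all genes). Their estimates were positive for 8, with a median of −0.04. HXT7 (YDR342C), a high-affinity hexose transporter, read 619 and 748 at 1 h and 943 and 1102 at 0.5 h, a step of −0.61 and −0.56 in the replicates (95% interval of the change −1.33 to 0.17). HXT3 (YDR345C), a low-affinity transporter, read 399 and 399 at 1 h and 444 and 608 at 0.5 h, and had already fallen by 3.17 at 0.5 h. Among regulators MIG1 (YGL035C), the main repressor of the glucose response, read 307 and 288 at 1 h and 367 and 381 at 0.5 h, and fell by 0.69 from 1 h to 4 h. Its relative MIG2 (YGL209W) read 36.7 and 32.9 at 1 h and 41.8 and 77.6 at 0.5 h, after a fall of 4.43 at 0.5 h. HXT3 and MIG1 were chosen after their values were seen. In the list of 30 carbon source regulators 5 lay below (16.7%, against 12.1% of all genes) and 2 above, with a median of −0.07.

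Genes for the use of ethanol had a median change close to 0. The list of the glyoxylate cycle, gluconeogenesis and C2 use had 2 of 23 genes above and 4 below. These are 8.7% and 17.4%, against 10.8% and 12.1% of all genes. The list had a median of 0.03 and an interval within a 2-fold change for 16 genes. It stood at a median of 4.62 over 0 h at 1 h and 4.59 over 0 h at 0.5 h. ADH2 (YMR303C), the alcohol dehydrogenase that oxidises ethanol, read 12357 and 12023 at 1 h and 12432 and 8141 at 0.5 h. ADY2 (YCR010C), an acetate transporter, read 9626 and 9103 at 1 h and 10245 and 8527 at 0.5 h, for a change of 0.00 (−0.59 to 0.59). PCK1 (YKR097W), which opens gluconeogenesis, read 5666 and 2375 at 1 h and 4301 and 1454 at 0.5 h, and differed more between replicates than between times; it rose by 1.54 from 1 h to 4 h. These 3 genes were chosen after their values were seen. ICL2 (YPR006C), the 2-methylisocitrate lyase of mitochondria and the largest estimate of the list at 0.72, read 1789 and 2179 at 1 h and 1953 and 736 at 0.5 h.

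Genes of peroxisomal beta-oxidation had the highest list median, 0.38, but only replicate 2 carried it. Of 19 listed genes 18 were measured, and in replicate 2 all 18 were higher at 1 h (median 0.86), while in replicate 1 14 of the 18 were lower (median −0.15). The median intensity of the list was 1581 and 2184 at 1 h, against 1827 and 1060 at 0.5 h. The 0.5 h array of replicate 2 thus stood below the other 3. Only MDH3, the peroxisomal malate dehydrogenase, named after its values were seen, did not overlap (5.6% of the list, against 10.8% of all genes above). It read 2990 and 3055 at 1 h and 2942 and 2659 at 0.5 h. The list median was −0.04 without the 0.5 h array of replicate 2 and 0.73 without that of replicate 1.

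POT1 (YIL160C), the thiolase of the last step of the cycle, read 3006 and 3442 at 1 h and 3373 and 1202 at 0.5 h, a change of 0.68 with an interval from −0.64 to 1.99. CTA1 (YDR256C), the peroxisomal catalase, read 2340 and 3105 at 1 h and 2549 and 1188 at 0.5 h. FOX2 (YKR009C) and POX1 (YGL205W), the multifunctional enzyme and the acyl-CoA oxidase of the cycle, were chosen after their values were seen. FOX2 read 3956 and 5455 at 1 h and 4718 and 2215 at 0.5 h, and POX1 1529 and 2487 at 1 h and 1892 and 1129 at 0.5 h. In each of these 4 genes the 0.5 h reading of replicate 2 was the lowest of the 4 arrays, and the other 3 readings overlapped between the times. Against 0 h, 15 of 18 members had risen at 0.5 h (30.1% of all genes) and 15 were higher at 1 h (29.3% of all genes), with medians of 2.74 and 3.15, and 15 of 18 fell from 1 h to 4 h (12.8% of all genes; median −1.39).

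TIP1 (YBR067C), a cell wall mannoprotein induced by cold shock, and ALP1 (YNL270C), an arginine permease, had 2 of the 3 largest estimates of all genes and showed the same arrangement. TIP1 read 5367 and 2662 at 1 h and 3867 and 316.05 at 0.5 h, a change of 1.77 with an interval from −0.27 to 3.82. ALP1 read 233 and 192 at 1 h and 201 and 34.5 at 0.5 h, a change of 1.34 (−0.11 to 2.80). In replicate 1 the changes were 0.47 and 0.21, in replicate 2 3.07 and 2.48. SPG1 (YGR236C), a gene of stationary phase, read 1925 and 2839 at 1 h and 2355 and 708 at 0.5 h, and GAP1 (YKR039W), the general amino acid permease, chosen after its values were seen, 3287 and 3049 at 1 h and 3233 and 1489 at 0.5 h. Over all genes 34 were 2-fold or more lower and 19 higher in replicate 2 than in replicate 1 at 1 h, against 55 lower and 31 higher at 0.5 h.

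Stress and reserve genes had risen before this interval and showed no shared step within it. The list of 43 general stress genes had a median of −0.02, with −0.13 in replicate 1 and 0.18 in replicate 2. It had 1 member above and 5 below without overlap (2.3% and 11.6%, against 10.8% and 12.1% of all genes). It stood at 2.34 over 0 h at 0.5 h and at 2.39 at 1 h, with 38 members called higher each time (30.1% of all genes at 0.5 h and 29.3% at 1 h). The 20 genes of trehalose and glycogen had a median of −0.11, with all 20 lower in replicate 1 and 15 higher in replicate 2, and none that did not overlap. GDB1 (YPR184W), the glycogen debranching enzyme, had the largest estimate there, with 1908 and 3142 at 1 h and 2575 and 3497 at 0.5 h. Heat shock chaperones ran the other way, with 21 of 29 higher in replicate 1 and 27 lower in replicate 2. CPR3 (YML078W), a mitochondrial cyclophilin, was a chaperone that lay below in both, with 1243 and 1333 at 1 h and 1452 and 1821 at 0.5 h. From 1 h to 4 h 24 stress genes and 13 trehalose and glycogen genes fell (12.8% of all genes).

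Of 48 proteasome genes 12 lay below (25.0%, against 12.1% of all genes) and 0 above. Their median was −0.09, 41 of the 48 estimates were negative, and all 48 intervals lay within a 2-fold change. NAS6 (YGR232W), an assembly chaperone of the regulatory particle, read 778 and 819 at 1 h and 873 and 1072 at 0.5 h. Autophagy genes had 3 above and 4 below of 31 (9.7% and 12.9%, against 10.8% and 12.1% of all genes), with a median of −0.01. ATG19 (YOL082W), a receptor that brings cargo to the vacuole, read 613 and 280 at 1 h and 771 and 379 at 0.5 h. The list of G1/S and DNA replication had 7 above and 7 below of 50 (14.0% each, near the shares of all genes), with a median of 0.04. WHI5 (YOR083W), the G1/S repressor, had its largest estimate but was dim, with 14.6 and 20.0 at 1 h and 22.4 and 21.4 at 0.5 h. CRF1 (YDR223W), a corepressor of ribosomal protein genes, had the largest estimate of the growth regulators, 0.57, with 446 and 550 at 1 h and 469 and 237 at 0.5 h. Its 0.5 h array of replicate 2 again stood below the other 3. The 25 growth regulators had 0 members above and 2 below without overlap (8.0%, under the 12.1% of all genes).

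A few lower genes fell outside all lists. FMP30 (YPL103C), a mitochondrial membrane protein, read 98.3 and 104 at 1 h and 135 and 174 at 0.5 h, the most negative estimate of the 12 genes named by their test, −0.59 (−0.98 to −0.21). GCG1 (YER163C), a cyclotransferase that degrades glutathione, read 107 and 129 at 1 h and 147 and 171 at 0.5 h, and fell by 0.55 from 1 h to 4 h. YBL055C, which encodes a nuclease of the TatD family, read 93.7 and 102 at 1 h and 129 and 150 at 0.5 h, and YFH7 (YFR007W), a putative kinase, 156 and 165 at 1 h and 221 and 221 at 0.5 h. YBL055C met the brightness minimum for named genes only through its 0.5 h mean of 140, with 97.8 at 1 h. FMP30 and YBL055C had fallen at 0.5 h, by 0.78 and 1.43, and rose from 1 h to 4 h by 0.80 and 0.75. Their lowest mean of the 5 times was thus that at 1 h.

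**Figure D4:**
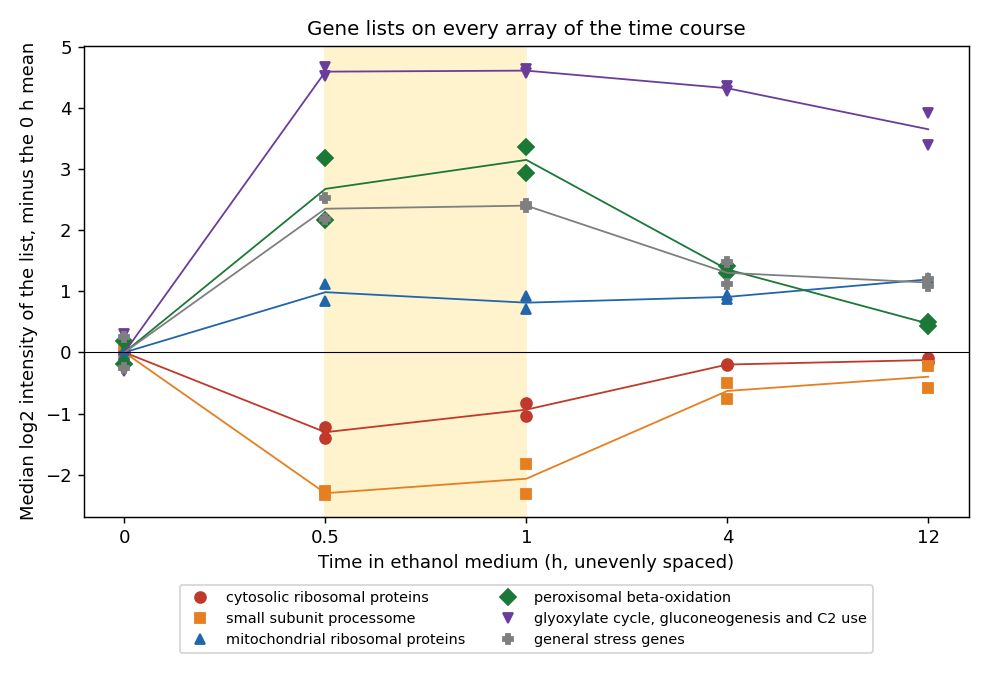
Median log2 intensity of 6 gene lists on each of the 10 arrays, relative to the 0 h mean, against time in ethanol (5 times as categories, from 0 h to 12 h, not to scale); points are arrays, lines join the mean of the 2 arrays, and the shaded band is the interval from 0.5 h to 1 h. Within the band the lines are nearly level beside the steps before it, and the 2 beta-oxidation points at 0.5 h lie further apart than those at 1 h.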

How the data were processed

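Intensities were deposited by the authors as 1 table of 5716 probe sets on 10 arrays; per the paper's methods, image files were read with MAS 5.0 and the log2 values were background-adjusted, normalized and summarised by RMA. The deposited intensity values are linear (1.90 to 13817) and have no missing entry. The genome build was not given in the sources used here, so no coordinates are printed. RMA equalises arrays, so a change in total mRNA cannot be seen. Log2 intensities were fitted with limma 3.58.1 (R 4.3.3), time as group, all 10 arrays sharing the spread (5 residual degrees of freedom), with Benjamini-Hochberg adjustment over 5449 genes. Of 5498 probe sets with 1 symbol (218 had none), the brightest per gene was kept, which set 49 aside; 115 kept sets are of shared kinds. The script was tested on simulated data. Named genes are the 12 per direction with the smallest unadjusted p, not overlapping, not shared and with a mean of at least 100 at the brighter time, since no gene passed, and the largest estimate in each list whose counts are described (48 lists were examined); others are said to have been picked by value, and 1 gene of the rule is not reported here. The members and lists were chosen with earlier results of these data known. The difference between steps was chosen after seeing the data. A planned look at promoter motifs was not run, as promoter sequences were not used here. The replicate number was not a block in the fit. Alternatives were the replicate block, the 4 arrays alone, quantile and median scaling, a pseudocount of 50, a floor of 100, all probe sets, no shared probe sets, another variance prior, a 2-fold minimum and leaving out each array.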

Additional observations from a re-analysis of the deposited data

How the results depend on the processing

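Counts of 0 calls at 1 h against 0.5 h, in total and in each direction, held under all 15 alternatives with limma, with the smallest adjusted p between 0.140 (without 0.5 h replicate 1) and 1.00. Same-numbered arrays of 1 h and 0.5 h deviated together (r = 0.445 across genes between the replicate differences of the 2 times), but with 2 numbers and no label that ties them, pairing was not taken as shown. With the replicate block there were 0 calls and 149 genes at an unadjusted p under 0.05, and with the block on the 4 arrays alone 0 calls and 312 genes (smallest adjusted p 0.161), against 90 without it. Leaving out each array in turn gave 0 calls and 33 to 181 genes at an unadjusted p under 0.05, the lowest without 1 h replicate 1. The ribosomal protein median ran from 0.23 to 0.44 and the mitochondrial one from −0.37 to −0.09 over all alternatives. Medians of ribosome assembly (−0.07 without 1 h replicate 1) and beta-oxidation (−0.04 without 0.5 h replicate 2) turned sign. Of the 67 genes named above by the rule or by value, none with a call, 14 turned sign in some setting, and of these GDB1 (without 1 h replicate 1), SES1 (without 0.5 h replicate 1) and ATG19 (without 1 h replicate 2 or 0.5 h replicate 1) kept it without 0.5 h replicate 2; leaving out each array in turn gave SPG1 −0.011 to 1.72, POT1 −0.068 to 1.42, SAM1 −1.16 to 0.37, TIP1 −0.033 to 3.58, PCK1 −0.23 to 1.34, ADH2 −0.028 to 0.58, ADY2 −0.13 to 0.13, FOX2 −0.023 to 1.07, GAP1 −0.030 to 1.09, CYC7 −1.16 to 0.29, HXK1 −1.08 to 0.071, GDB1 −0.65 to 0.066, SES1 −0.0025 to 0.49 and ATG19 −0.95 to 0.18. PCK1 (−0.074) and ADY2 (−0.038) also turned without 1 h replicate 1, and ADY2 (−0.026) with quantile scaling. The cause was not tested. Dim probe sets and 2 arrays a time limit what could be seen.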

Other observations

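Other genes, picked by their values, also differed between the 2 arrays of 0.5 h. GRE1, a stress-induced hydrophilin, read 1567 and 846 at 1 h (replicates 1 and 2) and 1572 and 438 at 0.5 h, and FIT3, a cell wall mannoprotein that retains siderophore iron, read 1101 and 594 at 1 h and 1261 and 378 at 0.5 h. FBP1, the fructose-1,6-bisphosphatase of gluconeogenesis, read 2877 and 1707 at 1 h and 2792 and 1016 at 0.5 h. In the other direction, CYC1, the major cytochrome c, read 571 and 523 at 1 h and 431 and 1142 at 0.5 h, and GDH1, the glutamate dehydrogenase of ammonium assimilation, 1244 and 2155 at 1 h and 849 and 2369 at 0.5 h. In FBP1, GRE1, FIT3 and GDH1 the replicates differed in the same direction at both times, and in CYC1 in opposite directions. HMX1, the heme oxygenase, was above on both 1 h arrays, with 873 and 770 at 1 h and 719 and 465 at 0.5 h, and fell by 2.38 from 1 h to 4 h (limma, adjusted p under the threshold).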
